A study of Rattus norvegicus with 17 samples.

Results

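Myelin is the lipid-rich sheath that oligodendrocytes wrap around axons in the central nervous system, and the hippocampus holds it in its white matter layers and tracts. Oligodendrocytes arise from oligodendrocyte precursor cells, which divide in response to platelet-derived growth factor and carry the receptor PDGFRA and the proteoglycan NG2 on their surface. As the cells mature they lose these precursor proteins and make the structural proteins of the sheath in large amounts, so the 2 sets of transcripts report on different stages of the same lineage.

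The genes described here are 9 of the 34322 genes in the count table, taken by symbol: Mbp, Mobp, Mal, Cnp, Mag, Mog and Opalin, which mature oligodendrocytes express, and Pdgfra and Cspg4, which precursors express. Hippocampal RNA from 17 Long-Evans rats aged 36 to 38 days was sequenced as stranded mRNA libraries. The 5 ethanol-exposed rats (ET, 3 males and 2 females) were born to a dam given a liquid diet with 6.7% ethanol, which supplied 36% of calories, from gestational day 0 to day 20. The 6 pair-fed rats (PF, 3 males and 3 females) came from a dam given an ethanol-free liquid diet in amounts matched to the intake of the ethanol dam, and the 6 ad libitum rats (AD, 3 males and 3 females) from a dam with free access to chow. Each diet group came from 1 litter, so diet and litter cannot be told apart, and p-values measure the spread between pups of a litter. The right hippocampus was used in 4 rats (1 ET, 2 PF and 1 AD) and the left in the other 13.

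Between 10853947 and 17498392 fragments were counted per sample. The study left out 3 samples as outliers (ET replicate 2, the PF animal 11f6 and AD replicate 4), and the comparisons below use its final 14, with all 17 given beside them. In these 3 libraries Ttr, a transcript that choroid plexus makes in very large amounts, stood at normalized counts of 87542, 100070 and 112029, while it was at most 14603 in the other 14. Of the 27 values of the 9 genes in these 3 libraries, 21 lay within the range of the other samples of their diet group. The 7 hippocampal neuron markers that were checked were detected, and their summed normalized count ran from 12072 to 21585 in the final 14. All 9 genes passed the filter on low counts in every comparison.

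Of the 9 genes, 8 had a RefSeq promoter window in the assembly GRCr8, from 250 bases before the annotated start to 50 after it. Windows of 4 myelin genes that were higher in ET than in PF rats before adjustment are shown here for what their upstream letters share. Capitals mark 3 short motifs searched on both strands: CAGCTG, an E-box of the kind bound by OLIG proteins, and AACAAT and ACAAAG, which SOX proteins such as SOX10 bind. None of the marked motifs overlap each other. The windows of Mobp and Opalin were picked for display after the search, with their matches known.
Mag (GRCr8 chr1:95290995-95291294, minus strand): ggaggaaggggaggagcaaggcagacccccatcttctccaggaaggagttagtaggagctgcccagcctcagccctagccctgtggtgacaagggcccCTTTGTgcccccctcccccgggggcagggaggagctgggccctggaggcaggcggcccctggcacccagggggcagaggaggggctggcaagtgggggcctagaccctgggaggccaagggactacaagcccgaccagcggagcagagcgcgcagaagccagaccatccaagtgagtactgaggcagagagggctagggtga
Mal (GRCr8 chr3:135341374-135341673, minus strand): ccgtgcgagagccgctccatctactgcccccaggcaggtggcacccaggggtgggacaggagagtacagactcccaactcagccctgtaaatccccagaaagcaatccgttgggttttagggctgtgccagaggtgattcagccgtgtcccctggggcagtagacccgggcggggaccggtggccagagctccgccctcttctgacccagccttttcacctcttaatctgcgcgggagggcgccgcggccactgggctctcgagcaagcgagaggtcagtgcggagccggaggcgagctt
Mobp (GRCr8 chr8:128746982-128747281, plus strand): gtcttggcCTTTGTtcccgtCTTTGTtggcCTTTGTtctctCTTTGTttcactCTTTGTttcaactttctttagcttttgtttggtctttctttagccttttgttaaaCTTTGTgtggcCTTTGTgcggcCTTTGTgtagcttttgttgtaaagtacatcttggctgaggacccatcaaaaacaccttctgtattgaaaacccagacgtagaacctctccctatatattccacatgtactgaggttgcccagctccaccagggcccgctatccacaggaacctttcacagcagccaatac
Opalin (GRCr8 chr1:249858141-249858440, minus strand): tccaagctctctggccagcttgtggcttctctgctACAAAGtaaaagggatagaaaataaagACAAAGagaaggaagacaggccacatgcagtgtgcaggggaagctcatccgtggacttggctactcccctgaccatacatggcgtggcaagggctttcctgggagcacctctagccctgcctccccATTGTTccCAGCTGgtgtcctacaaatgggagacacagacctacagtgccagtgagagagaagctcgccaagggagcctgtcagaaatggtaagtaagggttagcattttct

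The Mobp window held ACAAAG 8 times, each as CTTTGT on the strand shown, within a repetitive stretch at its upstream end. The Opalin window held ACAAAG 2 times, AACAAT once as ATTGTT and CAGCTG once, and the Mag window held ACAAAG once. The Mal window held none of the 3 motifs. Over all 9 windows of the 8 genes, with 2 for Mbp, CAGCTG was found in 3, AACAAT in 2 and ACAAAG in 5, and the windows of Pdgfra and Cspg4 held none of them. One Mbp window also held none, and the other held CAGCTG once, AACAAT 2 times and ACAAAG once. Over the 33469 promoter windows of the same length, 15.1% held CAGCTG, 11.7% AACAAT and 18.8% ACAAAG. A match is a description of the letters and was not tested as a binding site.

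Of the 7 myelin genes, all but Mog had 1.26- to 1.39-fold higher levels in ET than in PF rats, at unadjusted p-values below 0.05, and the precursor genes Pdgfra and Cspg4 had fold changes near 1. At the threshold of the study (adjusted p-value under 0.01 together with a log2 fold change over 1.5 in either direction) edgeR called 0 of the 9 genes in ET against PF, where 2.17% of 16068 genes tested passed. At an adjusted p-value below 0.05 it also called 0 of 9, against 4.13% of all genes, and at an unadjusted p-value below 0.05 it called 6 of 9, all higher in ET, against 4.72% of all genes in that direction. In all 17 samples 5 of 9 passed an adjusted p-value of 0.05 (Mbp, Mobp, Cnp, Mal and Opalin), all higher in ET, against 1.25% of all genes in that direction, and 6 of 9 passed before adjustment, against 6.02%. DESeq2 in the final 14 also called 5 of 9 (Mbp, Mag, Mobp, Mal and Opalin), all higher, where it called 0.736% of 21454 genes higher. In whole tissue, fewer cells of a type and less RNA per cell cannot be told apart.

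**Figure D1:**
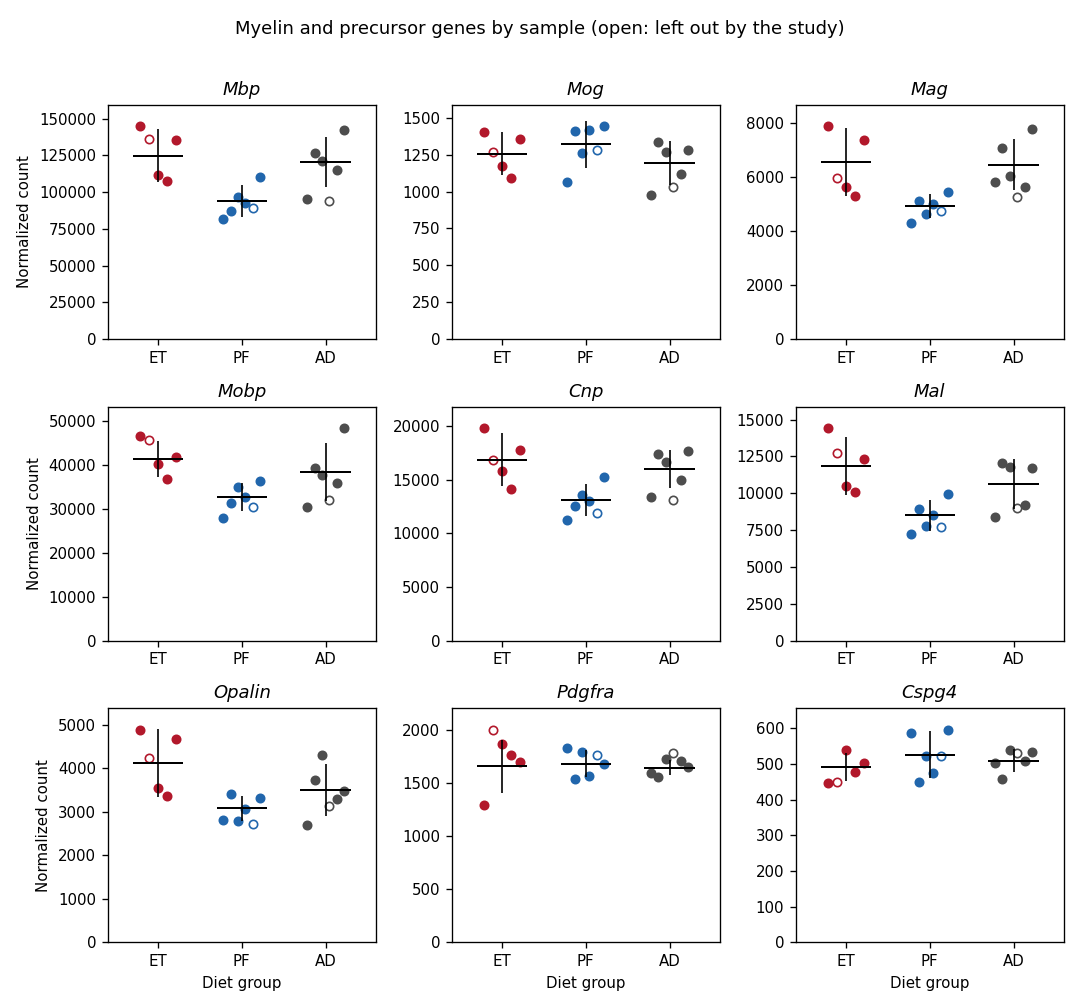
Normalized counts of the 9 genes in each of the 17 rats by diet group, with filled points for the final 14 samples, open points for the 3 the study left out, and bars for the mean ± SD of the final 14. The 5 ET values of Mobp and of Mal all lie above the 6 PF values. The other 7 genes overlap between ET and PF rats, and all 9 overlap between ET and AD rats.

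Myelin basic protein, the product of Mbp, holds the inner faces of the myelin membrane together. Its normalized counts in ET replicates 1, 3, 4 and 5 were 144878, 111648, 107623 and 135483, with 136459 in the left-out replicate 2. In PF rats they were 82010.0, 87276, 96888, 92801 and 110146 in replicates 1, 2 and 3, animal 11f5 and replicate 6, with 89223 in the left-out animal 11f6. In AD replicates 1, 2, 3, 5 and 6 they were 95562, 126731, 121184, 115304 and 142278, with 93899.6 in the left-out replicate 4. The ET and PF ranges met only where PF replicate 6 exceeded ET replicate 4, and the AD values spread from the PF range into the ET range. The mean was 124908 ± 18122 (SD, n = 4) in ET, 93824 ± 10716 (SD, n = 5) in PF and 120212 ± 17045 (SD, n = 5) in AD rats. The ratio of ET to PF in Mbp was 1.33, or 0.41 on the log2 scale (SE 0.115, adjusted p = 0.0926 by edgeR), and 0.45 in all 17 samples (SE 0.107, adjusted p = 0.0265).

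Mal encodes a small membrane proteolipid of lipid rafts that is abundant in compact myelin. Its normalized counts in ET replicates 1, 3, 4 and 5 were 14434, 10485, 10117 and 12346, with 12735 in replicate 2. In PF rats they were 7265, 8964, 7807, 8559.6 and 9935 in replicates 1, 2 and 3, animal 11f5 and replicate 6, with 7689 in animal 11f6. Every ET value lay above every PF value, with the closest pair 10117 and 9935. The AD counts of 8419, 12030.4, 11785, 9181 and 11703 in replicates 1, 2, 3, 5 and 6, and 8975 in replicate 4, overlapped both other groups. The log2 fold change in ET against PF was 0.48 (SE 0.123, adjusted p = 0.0648 by edgeR) in the final 14, and 0.53 (SE 0.108, adjusted p = 0.0101) in all 17, the smallest adjusted p of the 9 genes in either fit.

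Mobp, which encodes a myelin protein of the compact sheath, was the other gene whose ET and PF values did not overlap. Its normalized counts were 46539, 40085, 36665 and 41724 in ET replicates 1, 3, 4 and 5 and 45655 in replicate 2. In PF rats they were 27978, 31307, 35011, 32624 and 36192 in replicates 1, 2 and 3, animal 11f5 and replicate 6, and 30431 in animal 11f6. The gap between the lowest ET and the highest PF value, 36665 against 36192, was small. In AD rats Mobp ran from 30309 to 48342, the widest range of the 3 diets. The log2 fold change in ET against PF was 0.34 (SE 0.096, adjusted p = 0.102 by edgeR) and 0.39 in all 17 samples (SE 0.0906, adjusted p = 0.0246). Among all genes with a mean normalized count of at least 10, 1.88% had every ET value above every PF value in the final 14 and 1.18% in all 17, against 2 of the 9 genes, Mobp and Mal, in both.

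Cnp encodes an enzyme of the non-compacted parts of the sheath that keeps channels of cytoplasm open. Its mean normalized count was 16874 ± 2475 (SD, n = 4) in ET, 13115 ± 1478 (SD, n = 5) in PF and 16022 ± 1796 (SD, n = 5) in AD rats. The ET and PF ranges overlapped, from 14100.3 to 19827 and from 11208 to 15250.0, with PF replicate 6 again the highest PF value. The difference of ET against PF in Cnp was 0.36 on the log2 scale (SE 0.115, adjusted p = 0.159 by edgeR), and by 0.39 in all 17 samples (SE 0.1, adjusted p = 0.0441).

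Opalin encodes a transmembrane sialoglycoprotein of central myelin. Its normalized counts were 4888, 3545, 3370.2 and 4684 in ET replicates 1, 3, 4 and 5 and 4238 in replicate 2, while the 6 PF values ran from 2712 to 3409.7. Only PF replicate 2 exceeded an ET value, that of replicate 4. The log2 fold change was 0.42 (SE 0.123, adjusted p = 0.115 by edgeR) and 0.46 in all 17 samples (SE 0.105, adjusted p = 0.0215).

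Mag encodes the myelin-associated glycoprotein, which sits on the inner face of the sheath against the axon. Its normalized counts in ET replicates 1, 3, 4 and 5 were 7896, 5643, 5317 and 7396, with 5968 in replicate 2. In PF rats they were 4317, 5134, 4654, 5010.4 and 5472 in replicates 1, 2 and 3, animal 11f5 and replicate 6, with 4736 in animal 11f6. In AD rats they were 5811, 7106, 6036, 5624 and 7801 in replicates 1, 2, 3, 5 and 6, with 5285 in replicate 4. The PF rats were the low group, and the ET and AD ranges overlapped almost fully. Mag differed by a log2 fold change of 0.42 in ET against PF (SE 0.126, adjusted p = 0.134 by edgeR), and by 0.40 in all 17 samples (SE 0.107, adjusted p = 0.0506).

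The calls in ET against PF depended on single libraries. In the final 14, the number of the 9 genes at an adjusted p-value below 0.05 by edgeR rose from 0 to 3 without ET replicate 4 (Mag, Mal and Opalin) and to 1 without PF replicate 6 (Mal), and was 0 without each of the other 7 libraries. In all 17, it fell from 5 to 1 without ET replicate 1, ET replicate 2, ET replicate 5 or PF replicate 1, to 2 without PF replicate 2, PF replicate 3 or animal 11f5, and to 3 without animal 11f6. It was 5 without ET replicate 3 and 6 without ET replicate 4 or PF replicate 6. In every one of these 20 fits the same number of genes, 6 of 9, had an unadjusted p-value below 0.05. The share of all genes passing was not counted in these fits, so the changes in number cannot be read as particular to the 9 genes. ET replicate 1 had the highest count in its group of all 7 myelin genes. It also had the lowest count of Prox1, a gene of dentate granule cells, of all 17 rats, at 110.0 normalized counts against 244 or more in the AD and 304 or more in the PF rats, and the part of tissue composition in its myelin counts was not tested.

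Mog, which encodes a glycoprotein of the outermost myelin surface, did not follow the other myelin genes. Its normalized counts were 1405, 1175, 1095 and 1359 in ET replicates 1, 3, 4 and 5 and 1268 in replicate 2. In PF rats they were 1066, 1412, 1261, 1416 and 1443 in replicates 1, 2 and 3, animal 11f5 and replicate 6, and 1284 in animal 11f6. The AD values ran from 973 to 1335, and the 3 groups overlapped. The log2 fold change was -0.07 in ET against PF (SE 0.106, 95% confidence interval -0.303 to 0.168, adjusted p = 0.926 by edgeR), an interval that ends below the estimates of the 6 other myelin genes.

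Set against those 6 genes within each library, Mog was high in PF rats. The ratio of Mog to Mag counts was 0.178 to 0.212 in the 5 ET rats, 0.247 to 0.283 in the 6 PF rats and 0.164 to 0.211 in the 6 AD rats. The ratio of Mog to Mal was 0.0974 to 0.112, 0.145 to 0.167 and 0.108 to 0.122 in the same order. For all 6 ratios the PF values lay above every ET and every AD value, and the ET and AD values overlapped. This pattern was picked out after the values had been seen, so it is given without a test.

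Mog overlaps one other gene in the GRCr8 annotation, Zfp57, which encodes a zinc finger protein of genomic imprinting. Zfp57 was also highest in PF rats, at 748 to 938 normalized counts, against 514 to 616 in ET and 445 to 546 in AD rats. Its log2 fold change was -0.55 in ET against PF (SE 0.0784, adjusted p = 0.00124 by edgeR) and 0.74 in PF against AD (SE 0.0691, adjusted p = 1.29e-05). Reads were allowed to count for several features, the strand setting of the counting is not given in the sources used here, and what share of the Mog counts could come from reads over both genes was not tested.

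**Figure D2:**
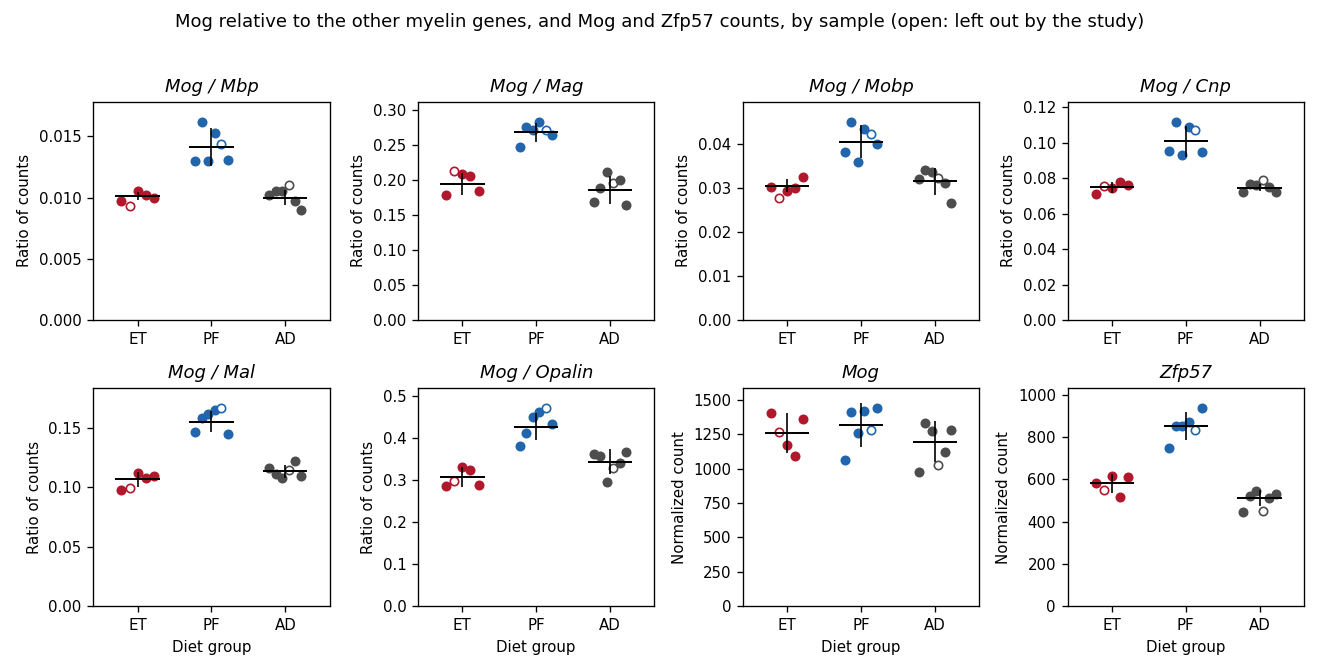
Ratio of Mog to each of the 6 other myelin genes in each rat, and the normalized counts of Mog and of the overlapping gene Zfp57, with open points for left-out samples and bars for the mean ± SD of the final 14. Every PF rat lies above every ET and AD rat in all 6 ratios and in Zfp57, but not in Mog itself.

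Mag and Mbp also share their loci with transcripts whose counts were highest in PF rats. Mag overlaps the non-coding RNA LOC108349549, whose normalized counts were 95.2 to 125 in the 6 PF rats, 2.14 to 4.36 in the 5 ET rats and 0 to 7.37 in the 6 AD rats. Mbp overlaps the non-coding RNA LOC108348833, at 513 to 632 in PF, 404 to 507 in ET and 416 to 511 in AD rats, with a log2 fold change of 0.34 in PF against AD (SE 0.0762, adjusted p = 0.0201 by edgeR) and -0.28 in ET against PF (SE 0.0747, adjusted p = 0.0779). Both ran opposite to the gene they overlap, which was lowest in PF rats. Mag overlaps another non-coding RNA, LOC120099789, which at 126 to 167 in PF and 150.4 to 210.0 in ET rats ran the same way as Mag and did not pass in either comparison (adjusted p = 0.293 and 0.188 by edgeR). The gene overlapping Cspg4 in the table, Odf3l1, had at most 13.1 normalized counts. No overlapping gene was annotated for Mobp, Cnp, Opalin or Pdgfra, and the one at Mal was not matched in the count table.

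Pdgfra encodes the receptor through which PDGF-A drives the division and survival of precursors. Its normalized counts in ET replicates 1, 3, 4 and 5 were 1299, 1873, 1772 and 1703, with 2006 in the left-out replicate 2. In PF rats they were 1831, 1545, 1792, 1571 and 1678 in replicates 1, 2 and 3, animal 11f5 and replicate 6, with 1765 in animal 11f6, and the AD values ran from 1561 to 1785. The lowest and the highest of the 17 values were both in ET rats, and ET replicate 1, which had the most Mbp, had the least Pdgfra. The log2 fold change in ET against PF was -0.02 (95% confidence interval -0.246 to 0.206, adjusted p = 0.986 by edgeR), and 0.03 in all 17 samples.

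Cspg4 encodes NG2, the proteoglycan by which precursors are usually recognised and which pericytes also carry. Its mean normalized count was 491 ± 39.4 (SD, n = 4) in ET, 526 ± 65 (SD, n = 5) in PF and 508 ± 32.3 (SD, n = 5) in AD rats. The 3 groups overlapped, with the 17 values between 446 and 596. The log2 fold change in ET against PF was -0.10 (95% confidence interval -0.313 to 0.113, adjusted p = 0.836 by edgeR). Whether the precursor genes differed from the myelin genes in their response was not tested.

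ET and AD rats did not differ detectably in any of the 9 genes. By edgeR 0 of 9 passed an adjusted p-value of 0.05 or the threshold of the study, each of which 0.0127% of 15749 genes passed, and 0 of 9 passed an unadjusted p-value of 0.05, where 2.74% did. DESeq2 also called 0, as did the fit of all 17 samples, where 0.0382% of genes passed an adjusted p-value of 0.05. The log2 fold changes ran from -0.05 for Cspg4 to 0.23 for Opalin. The 95% confidence interval of Opalin, -0.0996 to 0.569, still held the value of 0.42 found against PF rats. That of Mal, -0.155 to 0.465, ended just under its 0.48 against PF, and that of Mbp, -0.227 to 0.334, under its 0.41. The values of ET and AD rats overlapped for all 9 genes, where 1.23% of all genes did not overlap in the final 14 and 0.591% in all 17.

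In PF against AD rats Mag fell, and the other 5 myelin genes beside Mog had log2 fold changes from -0.36 for Mbp to -0.18 for Opalin that did not pass. By edgeR 0 of 9 passed the threshold of the study, where 2.05% of 15960 genes did, and 1 of 9 was lower at an adjusted p-value below 0.05, where 0.846% of all genes were. At an unadjusted p-value below 0.05, 4 of 9 (Mbp, Mag, Cnp and Mal) were lower, where 6.77% of all genes were, and DESeq2 called 2 of 9 lower after adjustment (Mbp and Mag), where it called 1.06% of 21544 genes lower. Mag was 0.76 times as high in PF as in AD rats (log2 fold change -0.40, SE 0.098, adjusted p = 0.0366), with every PF value of the final 14 below every AD value, as in 1.6% of all genes. With all 17 samples 0 of 9 were lower without overlap, where 0.62% of all genes were, since the left-out AD replicate 4, at 5285, lay below the highest PF value, 5472. Mbp differed by -0.36 (SE 0.106, adjusted p = 0.0869 by edgeR) and Mal by -0.32 (SE 0.114, adjusted p = 0.167). Mog, at 0.14 (SE 0.1, adjusted p = 0.542), and the precursor genes, at 0.03 for Pdgfra and 0.05 for Cspg4, did not pass.

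The Mag call held in all 17 samples (adjusted p = 0.0348 by edgeR), where 1.24% of all genes were lower, and was lost in the final 14 without PF replicate 1 (0.0939), PF replicate 2 (0.0695), PF replicate 3 (0.0859), animal 11f5 (0.0768), AD replicate 2 (0.101) or AD replicate 6 (0.0539). In all 17 it was lost without 7 of the 12 libraries: PF replicate 1 (0.0856), PF replicate 2 (0.0599), PF replicate 3 (0.072), animal 11f5 (0.0643), animal 11f6 (0.0731), AD replicate 2 (0.0886) or AD replicate 3 (0.0514). It was also lost in the final 14 in 1 fit of the 3 diets (0.0924) and with left hippocampi only (0.1). AD replicate 6 had the highest Mbp, Mag, Mobp and Cnp counts of the AD rats. Its summed count of hippocampal neuron markers was their lowest, 13967 against 17514 or more, and the part of tissue composition was not tested. In the final 14, the number of genes called rose to 3 of 9 without PF replicate 6, and to 2 without AD replicate 1. The share over all genes was not counted in these refits. ET against PF and PF against AD share the PF samples, so the low PF values enter both. In the order of the group means Mbp, Mag, Mobp, Cnp, Mal and Opalin ran ET, AD, PF, and among neighbours in that order AD and PF differed in Mag at an adjusted p-value below 0.05 by edgeR in the final 14, and in Mag and Mbp by DESeq2.

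**Figure D3:**
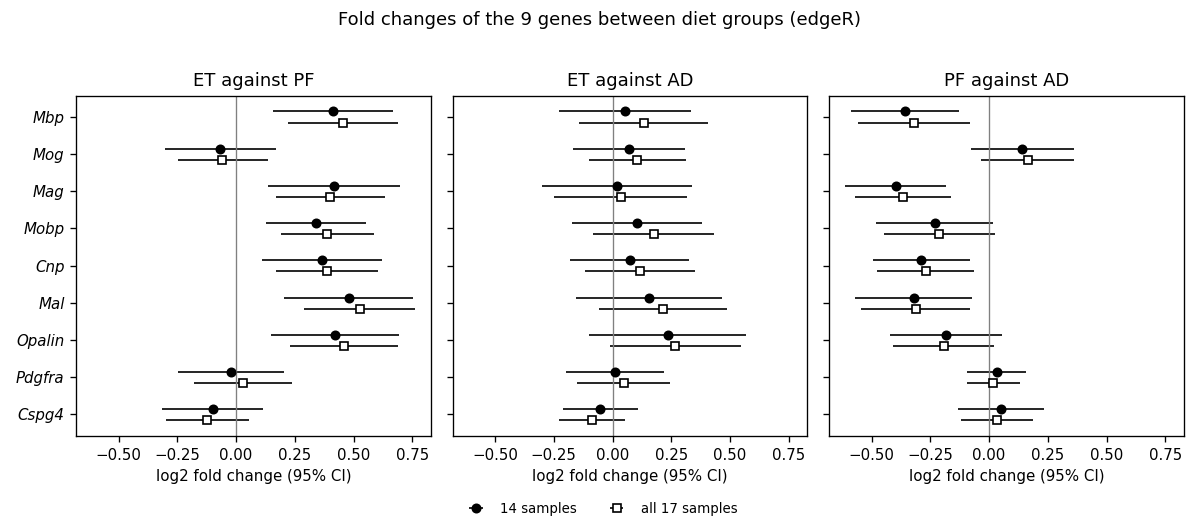
log2 fold changes of the 9 genes in the 3 comparisons of diets by edgeR with 95% confidence intervals, in the final 14 samples (filled circles) and all 17 (open squares). The 6 myelin genes other than Mog lie between 0.34 and 0.48 in ET against PF in the final 14 and below 0 in PF against AD, and all 9 intervals of ET against AD include 0.

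Of 38 further myelin and mature oligodendrocyte genes, 12 were higher and 0 lower in ET than in PF rats at an adjusted p-value below 0.05 by edgeR, where 0.541% of all genes were higher, and 26 did not pass. Their median log2 fold change was 0.38 against 0.01 over all genes tested, with 37 of 38 above 0 and a range from -0.10 to 0.73. In all 17 samples 23 of 38 passed, all higher, where 1.25% of all genes were higher. The list was chosen with results of these samples known, so its count is a description.

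The largest of these changes was in Tf, the iron carrier transferrin that oligodendrocytes make, at 0.73 on the log2 scale (SE 0.138, adjusted p = 0.0103 by edgeR). Fa2h, the hydroxylase that makes the 2-hydroxy fatty acids of myelin lipids, rose by 0.57 (SE 0.117, adjusted p = 0.0178), with 838 to 1230 normalized counts in the 6 PF rats and 1284 to 1760.5 in the 5 ET rats. Ndrg1, a gene of mature oligodendrocytes, rose by 0.42 (SE 0.0605, adjusted p = 0.0013), and Gpr37, a receptor of differentiating oligodendrocytes, by 0.36 (SE 0.07, adjusted p = 0.0129). Among marker genes of mature oligodendrocytes within this list, Aspa and Ermn each rose by 0.38 (adjusted p = 0.0479 and 0.0484 by edgeR), and Cldn11 and Ugt8 had log2 fold changes of 0.37 and 0.41 that did not pass (adjusted p = 0.22 and 0.0532).

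In ET against AD rats 0 of the 38 genes passed by edgeR, 3 had an unadjusted p-value below 0.05, where 2.74% of all genes did, and the median log2 fold change was 0.11. In PF against AD rats 10 of 38 were lower and 0 higher, where 0.846% of all genes were lower, with a median of -0.27. Ppp1r14a, an inhibitor of myosin phosphatase that oligodendrocytes express, fell by 0.61 on the log2 scale (SE 0.102, adjusted p = 0.00244), Tf by 0.52 (SE 0.117, adjusted p = 0.0204), Pllp, a myelin proteolipid, by 0.34 (SE 0.0758, adjusted p = 0.0201), and the adhesion molecule Jam3 by 0.22 (SE 0.0469, adjusted p = 0.0147).

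Of 14 transcription factors of the lineage, 1 was higher in ET than in PF rats, where 0.541% of all genes were. It was Myrf, the factor that switches on myelin genes, at 0.32 on the log2 scale (SE 0.0769, adjusted p = 0.0484 by edgeR). The other 13 did not pass and ran from -0.23 to 0.64. The median log2 fold change of the 14 was 0.25, with 12 above 0. Before adjustment 6 were higher at a p-value below 0.05 by edgeR, where 4.72% of all genes were. In PF against AD rats 2 of 14 were lower, where 0.846% of all genes were. These were Olig1 and Olig2, which specify the lineage and fell by 0.35 (SE 0.0842, adjusted p = 0.0296) and 0.34 (SE 0.0879, adjusted p = 0.0451). Sox10 had log2 fold changes of 0.28 in ET against PF (adjusted p = 0.245) and -0.23 in PF against AD (adjusted p = 0.125). In ET against AD rats 0 of 14 passed.

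Of 12 genes of committed precursors, the stage between dividing precursor and myelinating cell, 1 was lower and 0 were higher in ET than in PF rats, where 3.59% of all genes were lower. The median log2 fold change of the 12 was 0.125, with 8 above 0. Before adjustment 3 were higher and 1 lower at a p-value below 0.05 by edgeR, where 4.72% of all genes were higher. Between PF and AD rats 1 was lower and 1 higher in PF, where 0.846% and 4.32% of all genes were. The median there was -0.131, with 8 below 0. Before adjustment 4 were lower and 1 higher in PF, where 6.77% and 9.66% of all genes were. The gene lower in ET was Lims2, a focal adhesion adaptor, at -0.67 (SE 0.16, adjusted p = 0.0444 by edgeR), and it was higher in PF than in AD rats by 0.63 (SE 0.103, adjusted p = 0.00202). Enpp6, a phosphodiesterase of newly forming oligodendrocytes, fell in PF against AD by 0.74 (SE 0.146, adjusted p = 0.00897), with 324.5 to 566 normalized counts in the 6 PF rats and 564.5 to 817 in the 6 AD rats. In ET against PF its log2 fold change was 0.49 (adjusted p = 0.136), and in all 17 samples it passed (0.49, adjusted p = 0.0379).

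Of 17 further precursor genes measured, 0 passed in any comparison of diets by edgeR. Their median log2 fold change was 0.04 in ET against PF and -0.04 in PF against AD, with values from -0.17 to 0.22 and from -0.33 to 0.15. At an unadjusted p-value below 0.05, 0 passed in ET against PF, 0 in ET against AD and 2 in PF against AD, both lower. At that level 4.72% of all genes were higher in ET than in PF. In ET against AD 2.74% passed, and 6.77% were lower in PF than in AD. Of 3 precursor markers measured, 1 was higher in ET than in PF rats at that level, with a median log2 fold change of 0.124. In PF against AD 1 was lower, with a median of -0.159, and after adjustment 0 passed. Their summed count was 3524 to 3837 in ET, 2981 to 3688 in PF and 3471 to 3941 in AD rats of the final 14. Of 6 ligands, receptors and related genes of the PDGF family beside Pdgfra, 0 passed in any comparison. Pdgfa, the ligand of Pdgfra in brain, had log2 fold changes of 0.04 in ET against PF, -0.06 in ET against AD and -0.09 in PF against AD. Pdgfb, which endothelial cells make, had the lowest value in ET against PF, -0.18 (adjusted p = 0.374).

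**Figure D4:**
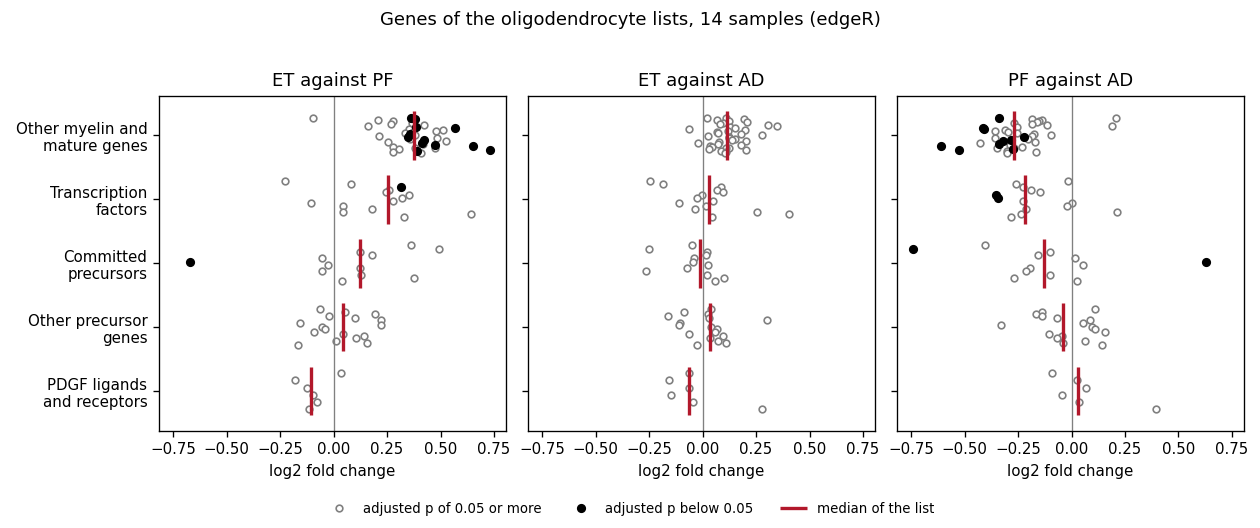
log2 fold changes by edgeR in the final 14 samples of the genes of 5 oligodendrocyte lists in the 3 comparisons of diets, with black points for an adjusted p below 0.05 and a red bar for the median of a list. The list of other myelin genes is shifted to a median of 0.38 in ET against PF and -0.27 in PF against AD, while further precursor genes and the PDGF family centre near 0.

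Tissue composition was checked with marker lists beside these results. Of 7 thalamus and habenula markers tested, 1 was higher in ET than in PF rats, where 0.541% of all genes were. It was Tnnt1, which encodes slow skeletal muscle troponin T and is a marker of thalamic neurons, at 1.60 on the log2 scale (SE 0.298, adjusted p = 0.00944 by edgeR). Compared with AD rats Tnnt1 fell by 1.80 in PF rats (SE 0.261, adjusted p = 0.000736), the 1 of 7 lower there, where 0.846% of all genes were. Over the 7 markers the median log2 fold change in ET against PF was 0.51, against 0.38 for the list of 38 myelin genes, with 6 of 7 above 0 and 3 higher at an unadjusted p-value below 0.05, where 4.72% of all genes were. Their median in PF against AD was -0.32, with 5 of 7 below 0 and 2 lower at an unadjusted p-value below 0.05, where 6.77% of all genes were. The median of the thalamus markers in the final 14 thus had the same sign as that of the 38 myelin genes in both comparisons. In all 17 samples it was 0.48 in ET against PF but 0.04 in PF against AD, with 5 of 7 above 0, where the median of the 38 myelin genes was -0.25. Normalized counts of Tnnt1 were 20.6 to 41.8 in ET, 4.14 to 12.9 in PF and 24.8 to 48.1 in AD rats. The summed count of the whole list was 1778 to 3203 in ET, 1332 to 2145 in PF and 1709 to 2071 in AD rats of the final 14, and none of its genes was at 0 in every library. The other lists, of hippocampal neurons, astrocytes, microglia, pericytes, fibroblasts and choroid plexus, had 0 genes past an adjusted p-value of 0.05 by edgeR in any comparison of diets in the final 14. The 5 perivascular fibroblast markers had a median log2 fold change of 0.33 in ET against PF, with 4 of 5 above 0 and 0 at an unadjusted p-value below 0.05, and of -0.21 in PF against AD, with 2 lower at that level. In all 17 samples these medians were 0.52, with 2 of 5 higher at that level, and -0.14, with 1 lower, so fibroblast markers too had medians of the same sign as the myelin genes. Their summed count was 1581 to 2870 in ET, 1311 to 2481 in PF and 1934 to 3166 in AD rats of the final 14. The medians of hippocampal neuron, astrocyte, microglia and pericyte markers lay between -0.06 and 0.09 in both comparisons of the final 14. Of these lists, choroid plexus had the most genes at an unadjusted p-value below 0.05, 5 of 10 higher in PF than in AD rats, where 9.66% of all genes were higher, and its median log2 fold change there was 1.37. In ET against AD rats 3 of its 9 genes tested were higher at that level, with a median of 1.25. In all 17 samples 0 of 10 passed at that level in either comparison, and the medians were 0.06 for PF and 0.12 for ET against AD. In all 17 samples 1 of 5 astrocyte genes was higher in ET than in PF rats at an adjusted p-value below 0.05 by edgeR, where 1.25% of all genes were. The part that the amount of white matter, thalamus or vessel-associated tissue in a dissection had in the myelin differences was not tested.

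Across the 17 rats the 6 myelin genes other than Mog rose and fell together. Their 15 pairs had Pearson's r of 0.758 to 0.975 and Spearman's rho of 0.775 to 0.978 in log2(CPM + 1), and all 15 passed a permutation test after adjustment over the 36 pairs of the 9 genes (largest adjusted p = 0.00101). Leaving out the 2 samples farthest from the median left r at 0.712 or more, and centring each gene within its diet group left it at 0.593 or more. Mbp and Cnp were the closest pair (r = 0.975, rho = 0.978), with a permutation p of 1e-05 for each, the smallest that 100000 permutations can give, and adjusted values of 3.6e-05 and 4e-05.

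The 6 pairs of Mog with those genes had r of 0.312 to 0.471 over the 17 rats, and 0 of them passed the permutation test. Centred within diet groups, the same 6 pairs had r of 0.784 to 0.926. Within a diet, then, Mog varied with the other myelin genes from rat to rat. The points share libraries and a common scaling.

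The 14 pairs of a myelin and a precursor gene had r of -0.475 to -0.132, and 0 of the 14 passed the permutation test of Pearson's r. By Spearman's rho 1 of 14 passed, Mog with Pdgfra (rho = -0.588, adjusted permutation p = 0.0324, against r = -0.399 and 0.174), and in the final 14 it did not (rho = -0.596, adjusted permutation p = 0.0579). With the 2 samples farthest from the median left out, r ran from -0.576 to 0.25, so the sign for some pairs rested on those samples. Pdgfra and Cspg4 had r = 0.41 and rho = 0.431 over 17 rats (adjusted permutation p = 0.174 and 0.182), and r = 0.675 and rho = 0.723 in the final 14 (adjusted permutation p = 0.0137 and 0.0104). With the 2 samples farthest from the median left out, r was 0.616 over the rest of the 17.

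**Figure D5:**
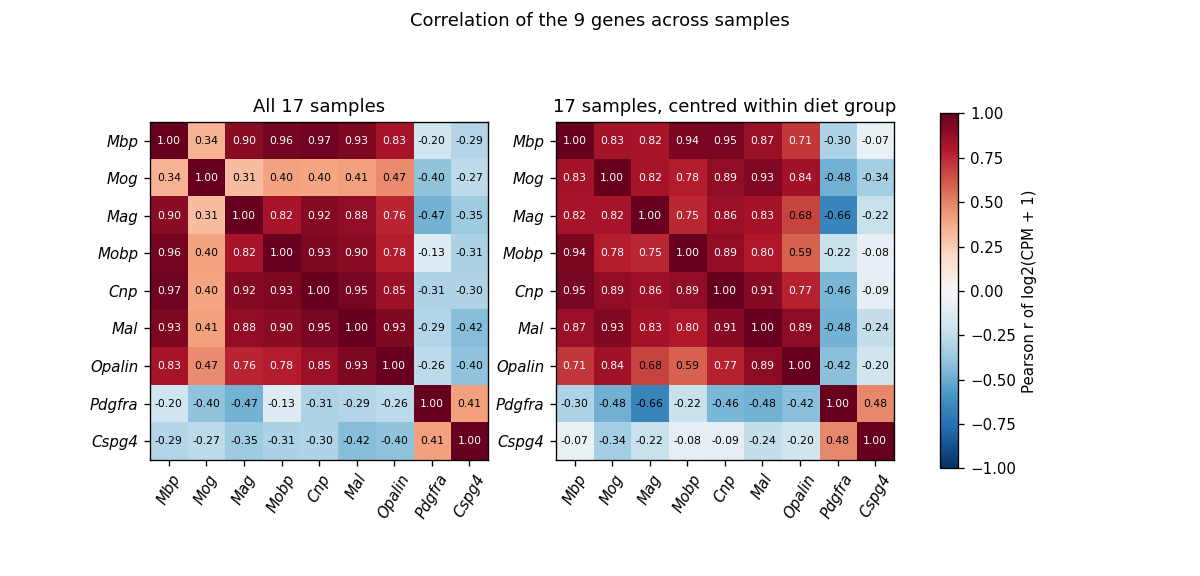
Pearson's r of log2(CPM + 1) for the 36 pairs of the 9 genes over the 17 rats (left) and after centring each gene within its diet group (right). Mog stands apart from the other 6 myelin genes on the left, at 0.312 to 0.471, and joins them on the right, at 0.784 to 0.926.

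The genes most like Mbp across the 17 rats, among 12219 genes with a mean CPM of at least 5, were Fa2h (r = 0.966), Gna12 (0.964), Akr7a3 (0.959), Sirt2 (0.956) and Cldn11 (0.951), where Cldn11 encodes the claudin of myelin tight junctions. Those most like Pdgfra were Tcf12 (r = 0.908), Ddr2 (0.894), Sdc2 (0.891), Trim56 (0.89) and Amotl1 (0.889). Those most like Cspg4 were less close, Dusp5 (r = 0.743), Thra (0.728), Nt5c1a (0.723), Hpcal4 (0.717) and Eif4g1 (0.715). None of the 15 genes named for one of the 3 was named for another.

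Sex was compared in the 9 ET and PF rats of the final 14 with diet as a covariate. By edgeR 0 of the 9 genes passed an adjusted p-value of 0.05, where 0.0436% of 16068 genes did, 0 passed at an unadjusted p-value of 0.05, where 1.87% did, and DESeq2 called 0. The log2 fold changes of males against females ran from -0.0027 for Mobp to 0.07 for Mog. The sex by diet interaction also gave 0 of 9 at both levels and by DESeq2, where 0% and 1.4% of 16484 genes passed, with values from -0.36 for Mal (95% confidence interval -0.932 to 0.21) to 0.21 for Pdgfra (-0.296 to 0.724), intervals that hold values as large as the differences between the diets.

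Right and left hippocampi were compared with diet as a covariate, with 3 right hippocampi (2 PF and 1 AD) in the final 14. By edgeR 0 of 9 genes passed an adjusted p-value of 0.05, as did 0% of 16439 genes, and 1 of 9 passed an unadjusted p-value of 0.05, as did 1.78%, while DESeq2 also called 0 and 1. That gene was Cspg4, higher on the right by a log2 fold change of 0.21 (95% confidence interval 0.0482 to 0.373), with 587 and 596 normalized counts in the right hippocampi of PF replicates 1 and 6, against 450.3, 522 and 476 in the left of PF replicates 2 and 3 and animal 11f5. With all 17 samples, which add the right hippocampus of ET replicate 2 at 449, it fell to 0.11 and no longer passed.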

How the data were processed

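Per the labels and the study's methods, the authors trimmed reads with fastp, mapped them to mRatBN7.2 with Bowtie2 2.4.2 and counted fragments on exons with featureCounts 2.0.1, allowing reads to count for several features. The values they deposited have the form of expected counts, fragments averaged over 3 technical replicates and not normalized. The strand setting and the annotation release are not given in the sources used here.

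Counts were rounded to whole numbers, filtered by filterByExpr, scaled by TMM and compared, 2 diet groups at a time, in edgeR 4.0.16 (R 4.3.3) by its quasi-likelihood test, with Benjamini-Hochberg adjustment over all genes tested. The samples were the study's final 14, with all 17 as an alternative. DESeq2 1.42.0 was another alternative. Normalized counts are scaled by TMM over the 17 samples to their mean effective library size, are not per length, and are compared between samples only. The 2 PF columns of animals 11f5 and 11f6 could be tied to their group but not to a replicate number. No 2 samples of a group agreed within sampling noise.

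Some items are not reported here. The genes, gene lists and tests were chosen with earlier results of these data known. Beside the 9 genes, the text names up to 4 genes per list and comparison with the smallest p among those at an adjusted p below 0.05, and the 5 genes most like each of Mbp, Pdgfra and Cspg4. Genes annotated as overlapping any of the 9 were named where the count table held them. Other genes (Ttr, Prox1, Sox10, Cldn11, Ugt8, Pdgfa and Pdgfb) were named after their values were seen. The confidence intervals (95%) come from the edgeR fits. Correlations used 100000 permutations (scipy 1.17.1, numpy 2.4.6, Python 3.11.15), two-sided. Overlapping genes and promoter sequences are from RefSeq annotation of GRCr8, another assembly than the authors' own, which all 9 symbols matched. The fits were tested on simulated data.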

Additional observations from a re-analysis of the deposited data

How the results depend on the processing

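In ET against PF the number of the 9 genes at an adjusted p-value below 0.05 was 0 and became 5 with DESeq2 and 5 with all 17 samples, and ran from 0 to 3 when each library was left out. In PF against AD it was 1 and became 2 with DESeq2, 0 with left hippocampi only, 0 in 1 fit of the 3 diets and 4 with the replicate number as a block, and ran from 0 to 3 when each library was left out. The cause was not tested, and the share of all genes passing was counted among these alternatives only for DESeq2 and all 17 samples. Same-numbered samples of the diets are different animals, and their deviations correlated by -0.28 to 0.65. There were only 2 to 4 such pairs per comparison, with a mean of 0.32 in ET against PF, where other pairs had -0.037. So few pairs cannot decide whether the numbers share a block. The block moved neither of the other counts at that threshold between diets. Of 495 refits of single fold changes, 443 kept direction and side of the threshold, 21 passed it, 8 no longer did and 23 changed sign. In ET against PF, Pdgfra became 0.028 with all 17 samples and 0.018 with left hippocampi, and ran from -0.082 to 0.078 when each library was left out. There Cspg4 became 0.021 with left hippocampi and Mog 0.15 with the block. In ET against AD, Mag became -0.010 with left hippocampi and Pdgfra -0.056 with the block. When each library was left out, Mbp ran from -0.029 to 0.12, Mag from -0.087 to 0.11, Cnp from -0.017 to 0.15 and Pdgfra from -0.052 to 0.11. In PF against AD, Cspg4 became -0.048 with left hippocampi. The number at the study's own threshold was 0 under every alternative, an absolute fold change above 1.5 included. In each correlation setting at least 15 of 36 pairs passed.

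The 4 to 6 rats of 1 litter per diet limit the precision, and a gene that did not pass is not shown to be equal between diets.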

Other observations

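The labelled sex was set against sex-linked transcripts. It matched in 15 of 17 libraries, and in AD replicate 1, labelled male, and AD replicate 2, labelled female, the Y-linked and female-specific transcripts went against the label. Neither library entered the comparison of the sexes, which used ET and PF rats. Of the 27 combinations of a gene and a diet group over the 9 genes, 0 had a sample that stood apart from the rest of its group by Dixon's test.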
